A study of Mus musculus with 6 samples.

Results

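Core promoter peaks of protein-coding genes were the NF-YA CUT&RUN peaks annotated to a protein-coding gene with the peak centre at most 100 bp from the transcription start site (TSS) of that gene. This rule used the annotation columns of the peak table and none of the read values, and selected 1747 of 9056 peaks (19.3%), each at a different gene. The remaining 3426 peaks of protein-coding genes, centred farther from the TSS, served for comparison. CUT&RUN releases the DNA around an antibody-bound protein with a tethered nuclease, and the series comprised 3 NF-YA libraries and 3 IgG control libraries from wild-type C57BL/6 mouse muscle stem cells (MuSCs), which were cultured in vitro and labelled as activated and proliferating. All libraries shared genotype, strain and cell state, and no mutant or treated cells entered. Only the NF-YA libraries were analysed, so there is no IgG background beside the values below, and binding data alone do not allow the labelled cell type to be checked against marker genes.

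NF-Y is a trimer of NF-YA, NF-YB and NF-YC. NF-YB and NF-YC form a histone-like dimer, and NF-YA joins it and makes the contacts that read the CCAAT box, a short element found in either orientation just upstream of many TSSs. NF-Y is known for promoters of cell cycle, endoplasmic reticulum (ER) stress and lipid synthesis genes, and in muscle it is associated with proliferating rather than terminally differentiated cells. Levels are given as normalised reads per peak, that is rounded read numbers after size-factor scaling between libraries, and they are not corrected for peak length.

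The following stretches show the 120 bases directly upstream of the TSS at members with the box arrangements described below. They are given 5′ to 3′ on the strand of the gene (GRCm38, the assembly behind mm10). Capitals mark CCAAT, a box on the strand of the gene, and ATTGG, a box on the opposite strand. Within the 120 bases shown, the first set holds boxes on the strand of the gene, as a pair or alone, and at *Atg2a* and *Gsk3b* the window from 150 bp upstream to 50 bp downstream of the TSS holds further boxes outside them.
*Kansl2*, chr15:98534265-98534384, minus strand: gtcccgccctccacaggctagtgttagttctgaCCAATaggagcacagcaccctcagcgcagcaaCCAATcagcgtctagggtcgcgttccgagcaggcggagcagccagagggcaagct
*Ccnf*, chr17:24251485-24251604, minus strand: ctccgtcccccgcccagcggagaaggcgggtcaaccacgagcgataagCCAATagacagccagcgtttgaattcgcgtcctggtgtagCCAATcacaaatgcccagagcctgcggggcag
*Taf1*, chrX:101532614-101532733, plus strand: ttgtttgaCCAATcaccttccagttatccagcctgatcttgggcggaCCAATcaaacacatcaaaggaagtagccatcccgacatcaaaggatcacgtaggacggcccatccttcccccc
*Atg2a*, chr19:6241548-6241667, plus strand: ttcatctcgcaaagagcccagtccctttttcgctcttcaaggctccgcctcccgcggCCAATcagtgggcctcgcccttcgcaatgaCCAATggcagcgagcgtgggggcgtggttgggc
*Prmt1*, chr7:44986569-44986688, minus strand: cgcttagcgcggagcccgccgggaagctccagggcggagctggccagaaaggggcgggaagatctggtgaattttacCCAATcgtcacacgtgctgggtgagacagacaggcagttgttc
*Gsk3b*, chr16:38088881-38089000, plus strand: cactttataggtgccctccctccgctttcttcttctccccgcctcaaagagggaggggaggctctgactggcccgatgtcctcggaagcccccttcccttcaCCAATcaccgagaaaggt

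The second set shows boxes on the opposite strand, on both strands, or overlapping in the palindrome CCAATTGG at *Pbx3*.
*Rab5b*, chr10:128696265-128696384, minus strand: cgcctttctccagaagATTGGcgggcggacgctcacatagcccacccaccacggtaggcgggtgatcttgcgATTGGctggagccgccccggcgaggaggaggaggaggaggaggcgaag
*Hspa14*, chr2:3512815-3512934, minus strand: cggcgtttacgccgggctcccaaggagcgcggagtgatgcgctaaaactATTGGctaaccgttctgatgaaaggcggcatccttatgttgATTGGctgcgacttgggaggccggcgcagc
*Myod1*, chr7:46376354-46376473, plus strand: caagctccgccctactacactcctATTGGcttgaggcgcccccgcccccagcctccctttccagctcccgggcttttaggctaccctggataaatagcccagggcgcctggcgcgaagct
*Swsap1*, chr9:21955635-21955754, plus strand: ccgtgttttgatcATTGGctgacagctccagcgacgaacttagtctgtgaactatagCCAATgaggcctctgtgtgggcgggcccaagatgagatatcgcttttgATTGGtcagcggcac
*Mvk*, chr5:114444149-114444268, plus strand: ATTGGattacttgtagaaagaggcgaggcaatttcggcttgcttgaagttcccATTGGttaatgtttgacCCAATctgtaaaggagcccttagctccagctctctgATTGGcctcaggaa
*Pbx3*, chr2:34373143-34373262, minus strand: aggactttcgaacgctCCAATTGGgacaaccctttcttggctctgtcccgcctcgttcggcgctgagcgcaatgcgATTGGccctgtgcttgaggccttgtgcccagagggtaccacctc

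The last stretch, at *Taf8*, holds no box in its 120 bases and none elsewhere under its peak.
*Taf8*, chr17:47502293-47502412, minus strand: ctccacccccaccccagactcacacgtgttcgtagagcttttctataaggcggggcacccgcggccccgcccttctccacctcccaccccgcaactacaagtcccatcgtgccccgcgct

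The 10 core promoter peaks with the highest mean had means between 338 and 627 normalised reads. *Gsk3b*, which encodes a glycogen synthase kinase and has its peak at chr16:38088386-38089468, held 607, 631 and 643 normalised reads in replicates 1, 2 and 3, the highest mean of all members (627 ± 18.3, SD, n = 3). *Kctd9*, with a peak at chr14:67715554-67716230, followed with 539, 668 and 613. The values of *Gsk3b* and *Kctd9* overlapped between libraries, so their order is within the replicate spread. *Kdm4a*, a histone lysine demethylase with a peak at chr4:118179567-118180359, held 354, 462 and 550. *Cbx5*, which encodes a heterochromatin protein of the HP1 family, held 379, 408 and 459 over the longest member peak of 1217 bp. *Wbp1* reached 336, 446 and 444. Replicate 1 was the lowest library at these 5 peaks and at 8 of the 10 in all, the exceptions being *Prmt1* and *Sf1*. *Swsap1*, a factor of homologous recombination, held 310, 380 and 421. *Prmt1*, the main asymmetric arginine methyltransferase, held 361, 384 and 354. *Rab11b*, a GTPase of recycling endosomes, held 332, 375 and 372. The ranges of *Swsap1*, *Prmt1* and *Rab11b* overlapped. *Sf1*, which encodes a splicing factor of the intron branch point, held 358, 338 and 328. *Rab5b*, a GTPase of early endosomes, held 322, 346 and 346. All 10 peaks exceeded 500 bp, and each held at least 3 boxes within the peak, up to 11 at *Cbx5*. Core promoter peaks made up 19.3% of the whole set of peaks. Of the 100 strongest peaks of the whole set 17 were core promoter peaks, near that share, and of the strongest 1000 there were 321, above it.

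**Figure D1:**
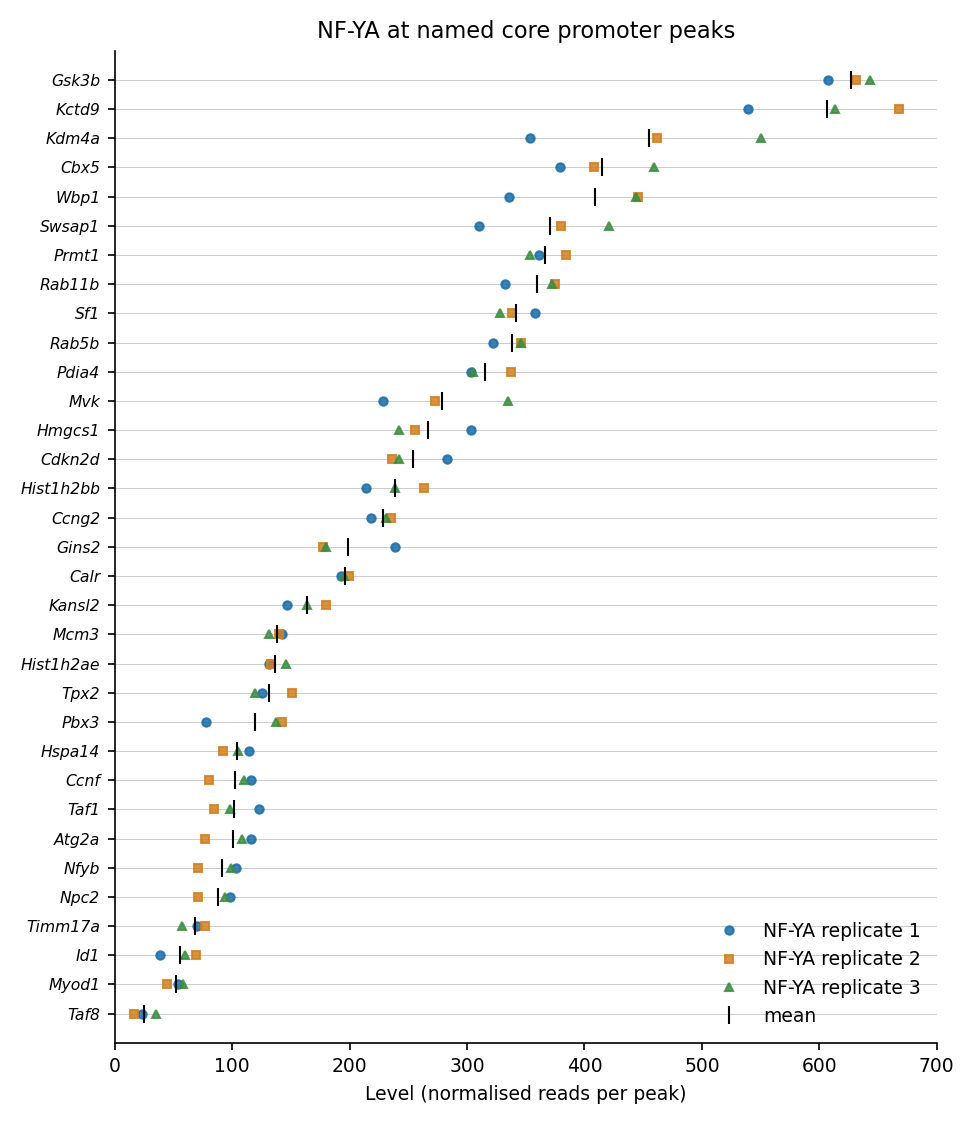
Normalised reads per peak (x axis, linear) at core promoter peaks of named genes (y axis), with 1 symbol per NF-YA library and a black tick for the mean. *Gsk3b* and *Kctd9* lie above 500 in all 3 libraries, and *Taf8* at the bottom lies between 16 and 35.

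Over all members, the level spanned from a mean of 1.33 to 627 normalised reads, with a median of 31, 30 and 32 in replicates 1, 2 and 3. These medians stand for about 46.3, 20.3 and 31.4 reads, since 1 read was worth 0.669, 1.48 and 1.02 normalised reads, respectively, so replicate 2 was the least precise library. Core promoter peaks took 28.1%, 26.9% and 27.5% of the summed values of all peaks. No member (0 of 1747) was at or below 3 reads in every library, and 1605 were above 3 reads in all 3. Peaks were called on these same libraries and then unified, so the count of 0 was largely given by the peak calling. Replicate 2 had the most members at or below 3 reads (117), followed by replicate 3 (56) and replicate 1 (3). The study lists the most called peaks for the first replicate, so weak members may have entered the unified set through that library. The parts of peak calling and of sequencing depth in this order were not tested. Across members, which are not independent replicates, log2(value + 1) correlated between replicates 1 and 2 with Pearson's r of 0.922, between 1 and 3 with 0.935 and between 2 and 3 with 0.930. The coefficient of variation over the 3 libraries had a median of 33.3% among the weakest of 4 groups of about equal size and of 10.9% among the strongest.

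The first replicate was sequenced with shorter reads than the others, as the study's methods state. Among the 889 members with a mean of at least 30, replicate 1 was the lowest library at 327 and the highest at 265, and it was below 50% of both other libraries at 7. Large ratios between libraries occurred at *Rbm39* and *Ttn*. *Rbm39*, a splicing regulator, held 13, 30 and 50 normalised reads. *Ttn*, the gene of the sarcomeric protein titin, held 37, 115 and 116, so that here replicate 1 alone was low. The highest library was 3.85 and 3.14 times the lowest at these members, respectively.

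Core promoter peaks had a higher median level than the other peaks of protein-coding genes as a whole in each library, and nearly the same median as those lying 101 to 1000 bp from the TSS. The 3426 other peaks had medians of 17, 19 and 18.5 normalised reads in replicates 1, 2 and 3, compared with 31, 30 and 32 for the members. The log2 ratio of medians was 0.77 ± 0.11 (SD, n = 3), a 1.71-fold difference, positive in 3 of 3 libraries (exact sign-flip permutation test, two-sided, p = 0.25, the smallest p that 3 libraries allow). The 1786 peaks at 101 to 1000 bp, a set chosen after the values were seen, had medians of 30, 31 and 32, and the log2 ratio to them was 0.00 ± 0.05 (SD, n = 3). The 1640 peaks beyond 1000 bp had medians of 12, 13 and 13. Core promoter peaks were also longer, with a median of 248 bp compared with 214 bp, and per kb of peak the log2 ratio was 0.46.

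Within the first 250 bp the median level was higher at larger distances from the TSS. The 412 members centred at 0 to 25 bp had a median of 25 normalised reads in each of the 3 libraries. The 458 members at 76 to 100 bp had medians of 38, 40 and 41. The median was highest just outside the core promoter, with 54.5, 56 and 62 at the 444 peaks centred 151 to 250 bp away, and it was 19 in every library at 251 to 500 bp. The median peak length moved along with the level, from 225 bp at 0 to 25 bp to 351.5 bp at 151 to 250 bp, and its part in the difference was not tested. Per kb of peak the values were 110, 114 and 115 at 0 to 25 bp, 141, 147 and 155 at 76 to 100 bp, and 154, 160 and 169 at 151 to 250 bp. The limit of 100 bp therefore did not coincide with a step in level. Of the members tied at 100 bp, just inside it, the highest were named. *Ttf2* held 74, 78 and 87, *Calu* 80, 61 and 69, and *Slc2a6* 64, 52 and 87 normalised reads. Other members at 100 bp were lower, such as *Fzd5* with 21, 13 and 24 and *Litaf* with 8, 4 and 6. Just outside the limit, the highest peaks at 101 bp were *Nup62* (94, 123 and 144), *Hinfp* (99, 75 and 104) and *Eea1* (35, 35 and 37).

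**Figure D2:**
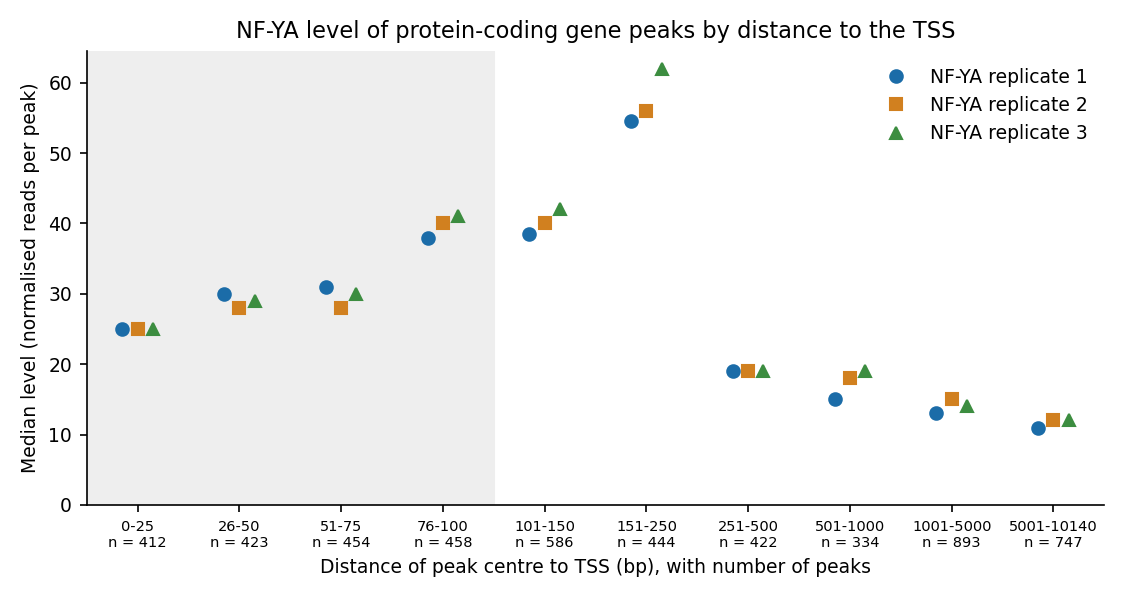
Median normalised reads per peak (y axis) for peaks of protein-coding genes in bins of distance from peak centre to TSS (x axis, unequal bins), with 1 symbol per NF-YA library and the core promoter bins shaded. The median rises from 25 in the first bin to 54.5, 56 and 62 at 151 to 250 bp and then falls to 19.

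Most core promoter peaks were centred upstream of the TSS. The centre lay upstream in 1390 members (79.6%), downstream in 345 and at the TSS in 12, with a median of 44 bp upstream, and the TSS itself lay inside the peak in 1610 members (92.2%). The peaks on either side differed in how often they held a CCAAT box near the TSS. A box within the window from 150 bp upstream to 50 bp downstream of the TSS was present in 86.3% of the upstream members (95% Wilson interval 84.3 to 88.0%) and in 62.6% of the downstream members (57.4 to 67.5%). The share was highest for centres 51 to 75 bp upstream, at 89.0%. It was 45.7% and 48.9% for centres 51 to 75 bp and 76 to 100 bp downstream. These downstream centres lie outside the window, which ends 50 bp downstream, so part of their lower share is built in. Within 50 bp of the peak centre, CCAAT lay in 78.4% of the upstream members (76.2 to 80.5%) and in 55.9% of the downstream members (50.7 to 61.1%). The level did not follow either share. Upstream members had medians of 31, 28 and 31 normalised reads and downstream members of 31, 34 and 33. The 47 members centred 76 to 100 bp downstream had medians of 58, 66 and 66, with a median length of 324 bp. Intervals on shares of peaks cover counting error only.

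The CCAAT box was the most frequent of the elements searched at core promoter peaks. On either strand, CCAAT lay within 50 bp of the peak centre in 1292 of 1747 members (74.0%, 95% Wilson interval 71.8 to 76.0%) and in 51.5% of the other peaks of protein-coding genes (49.8 to 53.2%). The difference was 22.4 percentage points (95% Newcombe interval 19.7 to 25.05). The peaks at 101 to 1000 bp, which equalled the members in level, held it in 57.2% (54.9 to 59.4%). Counted from the TSS, the window from 150 bp upstream to 50 bp downstream held a box in 1424 members (81.5%), compared with 30.8% of all 21938 annotated protein-coding promoters and 26.4% of the 20193 without a core promoter peak. At least 2 boxes were present in 38.0% of members and in 6.08% of promoters without such a peak. The promoters without a core promoter peak include genes with an NF-YA peak farther from the TSS. They also include most genes that start within 1000 bp upstream of a member on the opposite strand. Among the 1617 members with a box within 500 bp of the TSS, the nearest box lay a median of 19 bp from the peak centre, and within 20 bp in 53.2%.

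Boxes were concentrated between 20 and 80 bp upstream of the TSS and pointed in both directions equally often. Members were selected by a peak centre at most 100 bp from the TSS, and boxes lay close to the peak centre. Part of this concentration, and of its contrast with all promoters, is therefore given by the selection rule. The interval from 60 to 41 bp upstream was the densest, with 24.8 boxes per 100 members compared with 5.93 per 100 among all protein-coding promoters. At 260 to 241 bp upstream the density was 2.18 boxes per 100 members, compared with 3.34 in all promoters. Of 3118 boxes within 300 bp of the TSS, 30.5% (28.9 to 32.1%) lay 50 to 110 bp upstream, the classical position of the element, compared with 19.3% in all promoters. Within the core window the median box position was 51 bp upstream, with the interquartile range from 79 to 22 bp upstream. Of the 2303 boxes there, 1165 (50.6%, 48.5 to 52.6%) had CCAAT on the strand of the gene, as at *Kansl2*, and the others had it on the opposite strand, as at *Rab5b*. The share was 50.3% in all promoters.

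**Figure D3:**
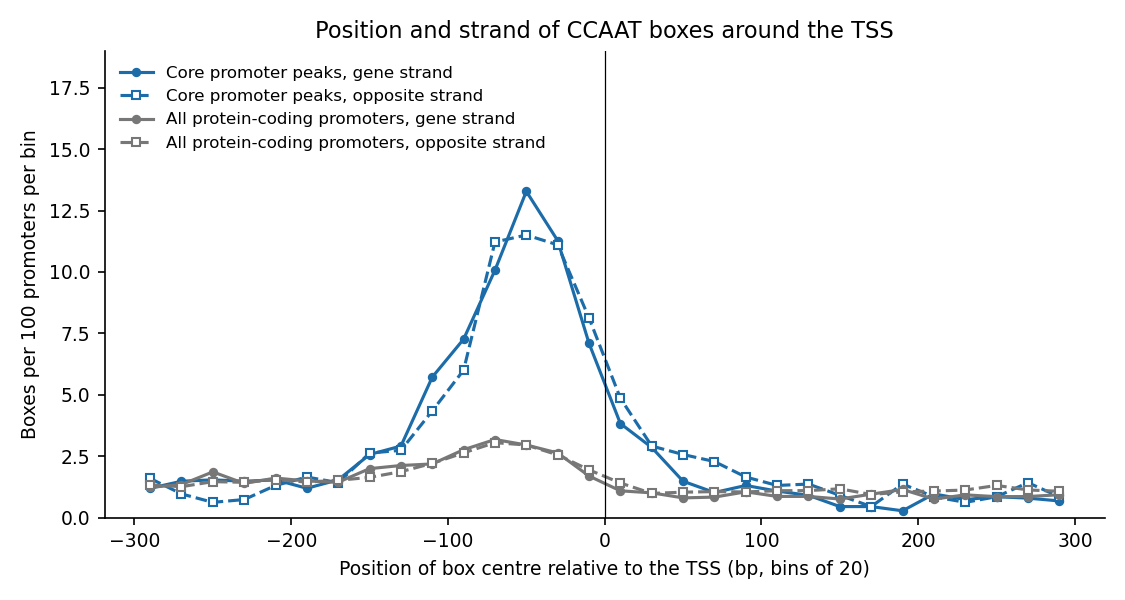
CCAAT boxes per 100 promoters in bins of 20 bp (y axis) by position of the box centre relative to the TSS (x axis), for core promoter peaks (blue) and all annotated protein-coding promoters (grey), with solid lines for the gene strand and broken lines for the opposite strand. Both blue lines peak between 80 and 20 bp upstream, where both strands together reach 24.8 boxes per 100 core promoter peaks.

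Core promoter peaks with a CCAAT box had higher median levels in each library than those without. The 1424 members with a box had medians of 37, 36 and 38 normalised reads in replicates 1, 2 and 3, and the 323 members without had 13, 13 and 15. The log2 ratio was 1.44 ± 0.09 (SD, n = 3), a 2.71-fold difference in the same direction in 3 of 3 libraries (exact sign-flip permutation test, two-sided, p = 0.25, the smallest possible). Peaks without a box were shorter (median 186 bp), and among members with peaks of 200 to 300 bp the log2 ratio was 0.54. Of the 323 members, 75 had a box elsewhere under the peak. The other 248 had none at all and medians of 11, 11 and 12. Of these, 144 were among the 442 weakest members and 5 among the 436 strongest. The strongest of them, singled out after their values were seen, were *Traf2*, *Ncl* and *Kdm6a*. *Traf2*, an adaptor of tumour necrosis factor receptors, held 92, 81 and 107 normalised reads. *Ncl*, which encodes nucleolin, held 92 in each library. *Kdm6a*, an X-linked histone demethylase, held 84, 61 and 113.

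Median levels were higher with more boxes. Members with 1 box (761) had medians of 24, 24 and 23 normalised reads, and members with 2 boxes (486) had 55.5, 50 and 54. With 3 boxes (140 members) the medians were 95.5, 86.5 and 89, and with 4 or more (37 members) 98, 102 and 108. The library medians of the groups with 0, 1, 2, 3 and 4 or more boxes did not overlap. Those with 3 and with 4 or more lay close to each other. For at least 2 boxes against 1, the log2 ratio was 1.43 ± 0.11 (SD, n = 3), a 2.69-fold difference present in 3 of 3 libraries (exact sign-flip permutation test, two-sided, p = 0.25, the smallest possible). Peak length rose along with the number of boxes, from a median of 186 bp without a box to 219, 300.5, 361.5 and 407 bp. Per kb of peak the log2 ratio was 0.85, and among peaks of 200 to 300 bp it was 0.29. The difference was smaller, in the same direction, where peak length was held within these bounds.

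**Figure D4:**
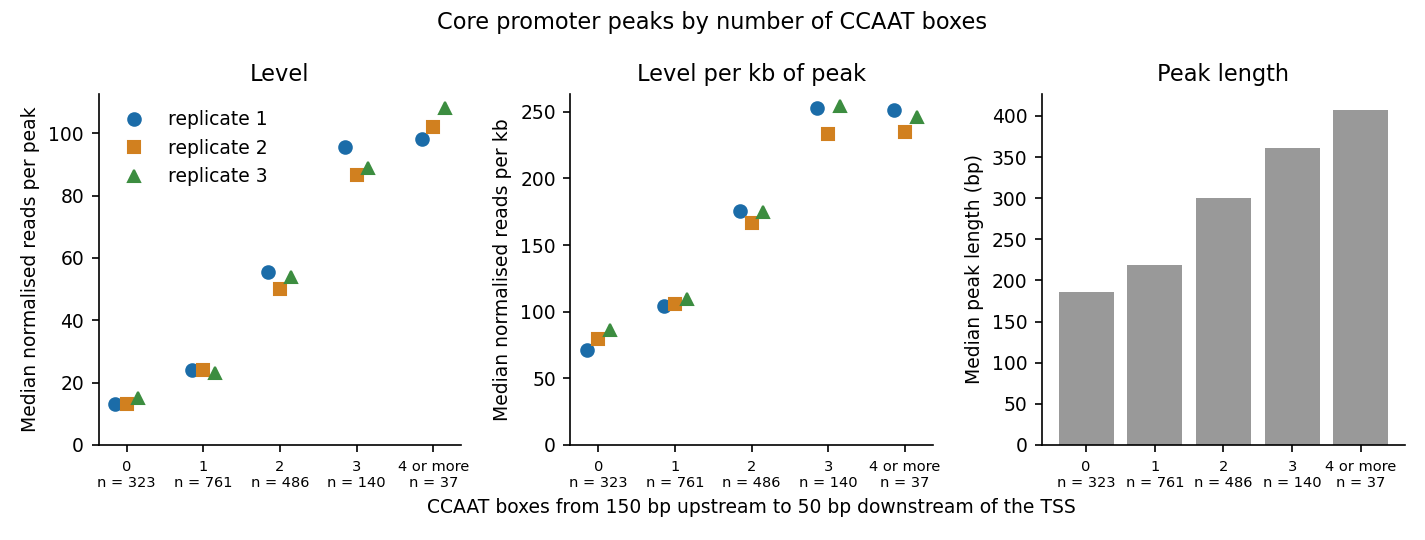
Core promoter peaks grouped by the number of CCAAT boxes from 150 bp upstream to 50 bp downstream of the TSS (x axis), with the median normalised reads per peak (left), the same per kb of peak (middle) and the median peak length (right, bars), and 1 symbol per NF-YA library. From 0 to 3 boxes all 3 quantities rise, and from 3 to 4 or more boxes the level per kb does not.

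The strongest members had long peaks with several boxes, while the density of boxes within the peak changed little with the level. When members were divided into 4 groups of increasing mean, the share with a box rose from 64.7% to 77.6%, 89.8% and 94.3%, and the share with at least 2 boxes from 12.9% to 70.4%. The median peak length rose from 137 to 407 bp over the same groups. The number of boxes per kb of peak was 5.43, 5.02, 5.59 and 5.98, with no comparable rise. For members with 1 box, the level differed with its position and little with its strand. Medians over the position bins lay between 19 and 30 normalised reads in every library. They were highest for boxes 148 to 101 bp upstream (62 members), at 29.5, 27 and 30, with a median peak length of 246 bp. The lowest were at 0 to 48 bp downstream (104 members), at 19, 19.5 and 20.5, with a median length of 200.5 bp. The part of peak length was not tested. A box on the strand of the gene went with medians of 24, 21 and 22, and a box on the opposite strand with 24, 24 and 25.

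The bases next to the box differed from those at boxes of promoters in general. On the strand that reads CCAAT, the base before the box was G in 49.2% of the 2275 boxes with readable flanks, compared with 38.9% in all protein-coding promoters. The base after the box was C in 50.9% compared with 40.7%, and the next base was A in 45.6% and G in 37.2% compared with 38.2% and 29.6%. A box with a purine at both places before it, C or G directly after it and a purine next made up 44.9% of the member boxes (42.8 to 46.9%), as in the box of *Kansl2* nearer to the TSS, and 29.4% of the boxes in all promoters (28.5 to 30.3%). Among members with 1 box, those with these flanks (379) had medians of 24, 25 and 25 normalised reads and those without (375) of 22, 21 and 20.

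Neighbouring boxes had preferred distances, which depended on their relative orientation. Of 879 neighbouring pairs, 575 lay on the same strand, and their centres were 30 to 32 bp apart in 111 pairs (19.3%, 16.3 to 22.7%) and 40 to 42 bp apart in 68 (11.8%, 9.44 to 14.7%). The distances in between were rarer, with 19 pairs at 35 to 37 bp and 20 at 45 to 47 bp, followed by 33 pairs at 50 to 52 bp. The most frequent single distances were 32 bp (43 pairs), found at *Kansl2*, and 41 bp (37 pairs), found at *Hspa14*, a ribosome-associated chaperone gene. *Atg2a* had a pair at 30 bp, *Taf1* at 39 bp and *Ccnf* at 40 bp. In promoters without a core promoter peak the same maxima were present, with 13.2% of 892 pairs at 30 to 32 bp (11.2 to 15.6%) and 9.98% at 40 to 42 bp (8.18 to 12.1%). Some of these promoters have an NF-YA peak farther from the TSS. Same-strand pairs closer than 23 bp were rare among members, at 2.61% (1.59 to 4.26%) compared with 11.8% (9.82 to 14.1%) in those other promoters.

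The 304 pairs on opposite strands were distributed differently. The palindrome CCAATTGG, in which the centres are 3 bp apart, accounted for 17 pairs and is shown above at *Pbx3*. With ATTGG first and CCAAT second, 17 bp was the most frequent distance (15 pairs), which *Mvk* shows between its middle boxes. Among members with exactly 2 boxes, same-strand pairs (335) went with medians of 60, 55 and 58 normalised reads and opposite-strand pairs (151) with 42, 47 and 49, and the median lengths were 305 and 284 bp. Same-strand pairs were higher in 3 of 3 libraries, and by distance their medians were 56, 56 and 55 at 23 to 34 bp, 62, 55 and 61 at 35 to 55 bp, and 58, 55 and 63 beyond. Only 4 members had such a pair at 1 to 22 bp, with medians of 13.5, 23 and 22.5.

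**Figure D5:**
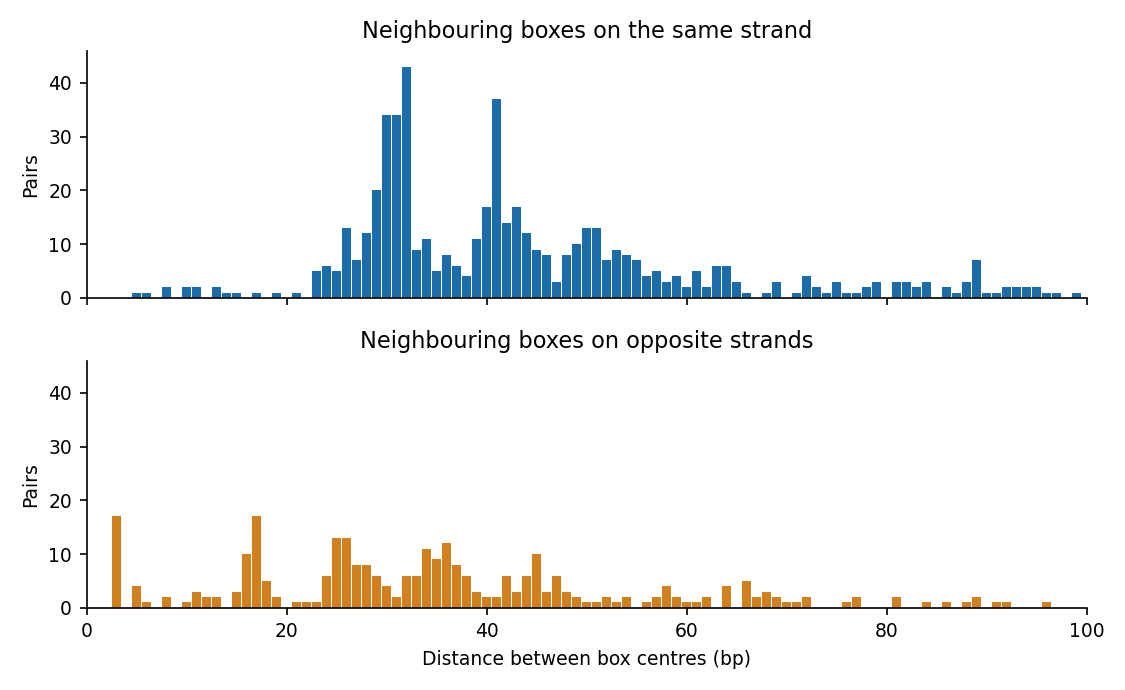
Number of neighbouring CCAAT box pairs (y axis) by distance between their centres (x axis, bp) at core promoter peaks, on the same strand (top) and on opposite strands (bottom), without the 50 pairs at 100 bp or more. Same-strand pairs are most frequent at 30 to 32 bp (111 pairs) and 40 to 42 bp (68 pairs), and opposite-strand pairs at 3 bp and 17 bp (17 pairs each).

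Other promoter elements were searched in the same window on both strands, and a match is a description of letters, not of a bound site. The GC box GGGCGG, the core of Sp1-type sites, was present in 63.8% of members (61.5 to 66.0%) and 39.8% of all protein-coding promoters, and members with and without it had similar medians, at 31, 28 and 31 and at 31, 31 and 32 normalised reads. The ETS-type element CCGGAAG was present in 15.2% compared with 9.48%, and the E box CACGTG in 8.93% compared with 6.02%. The YY1-type element AAGATGGCG was present in 3.09% compared with 1.48%, and the cAMP response element TGACGTCA in 2.98% compared with 2.21%. The NRF1-type element GCGCATGC was present in 76 members (4.35%) compared with 2.96%. These members had lower medians, 19, 18 and 17 compared with 32, 30 and 32 without it. Medians were also lower with the cAMP response element (22, 21 and 21.5 compared with 31, 30 and 32). The same held for the ETS-type element (26, 27 and 28 compared with 32, 31 and 32). With the YY1-type element they were higher (36.5, 35.5 and 34.5 compared with 31, 30 and 31). With the E box they were close to those without it (30.5, 28 and 29 compared with 31, 30 and 32).

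Elements that were less frequent at core promoter peaks than at promoters in general were the TATA box TATAAA, with 3.49% compared with 8.42%, and the cell cycle homology element TTTGAA, with 7.73% (6.57 to 9.07%) compared with 9.55%. The AP-1 element TGACTCA was present in 2.29% (1.69 to 3.10%) compared with 3.04%. Medians were 23, 24 and 23 with TATAAA and 24.5, 25.5 and 26 with TGACTCA, compared with 31, 30 and 32 without either element in turn. With TTTGAA they were higher, 37, 34 and 38 compared with 31, 28 and 31. On the strand of the gene and restricted to 40 to 16 bp upstream of the TSS, TATAAA was found in 15 members (0.859%) and in 2.41% of all promoters. The composite ER stress response element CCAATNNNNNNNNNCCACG occurred in 2 members (0.114%, 0.0314 to 0.416%). Its share in all promoters, 0.0729%, lies within that interval. Both members are genes of ER protein quality control. *Syvn1*, a ubiquitin ligase of ER-associated degradation, held 91, 103 and 94 normalised reads, and *Pdia6*, a protein disulfide isomerase, held 29, 35 and 19. The window had a median GC content of 61.7% in members and 57.2% in all promoters. The ratio of observed to expected CpG was 0.796 in members and 0.560 in all promoters. The part of base composition in the shares of these elements was not tested. The median level went down with GC content, from 34, 37 and 37 in the lowest of 4 groups by GC content to 25, 24 and 27 in the highest, while the share with a box stayed between 80.0% and 83.4%.

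Core promoter peaks were assigned to genes in 12 lists of pathways, which were drawn up with earlier results of these data known. As background, 1747 of 21940 protein-coding genes (7.96%) had a core promoter peak, and the median mean of all members was 30.7 normalised reads. In the G2/M and mitosis list 14 of 30 genes (46.7%) had one, 13 of them with a box at the TSS, and the median mean was 43.8. *Tpx2*, a spindle assembly factor, held 125, 151 and 119 normalised reads, and *Ccnf*, which encodes cyclin F, held 116, 80 and 110. *Cdk1*, the mitotic kinase, held 61, 44 and 42, while *Plk1*, another mitotic kinase, held 9, 1 and 8, which was below 3 reads in replicate 2. In the DNA replication and nucleotide synthesis list 10 of 30 genes (33.3%) had a core promoter peak, with a median mean of 59.7. *Gins2*, a subunit of the replicative helicase, held 239, 177 and 180, and *Mcm3*, another helicase subunit, held 142, 140 and 131.

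The ER, lipid, chromatin and cell cycle inhibitor lists had the highest median means of the 12 lists. In the ER stress and chaperones list 12 of 31 genes (38.7%) had a core promoter peak, 11 of them with a box at the TSS, and the median mean was 149. *Pdia4*, a protein disulfide isomerase, held 303, 337 and 305 normalised reads, and *Calr*, which encodes the lectin chaperone calreticulin, held 193, 199 and 195. *Hspa5*, the gene of the major ER chaperone BiP, held 218, 148 and 191. In the cholesterol and fatty acid synthesis list 11 of 30 genes (36.7%) had one, with a median mean of 106. *Mvk* (mevalonate kinase) held 228, 273 and 335, and *Hmgcs1* (HMG-CoA synthase) held 303, 256 and 242. A further 12 genes of this list, among them *Fasn*, *Sqle* and *Srebf2*, had a peak only farther from the TSS.

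Of the chromatin modifier list, 9 of 30 genes had a core promoter peak, all 9 above the median of all members and all 9 with a box at the TSS, and the median mean was 157. Besides *Cbx5* and *Prmt1*, these were *Prmt5*, an arginine methyltransferase, with 200, 189 and 202 normalised reads, and *Kansl2*, a subunit of the NSL acetyltransferase complex, with 147, 180 and 164. *Kmt5a*, a histone lysine methyltransferase gene, held 149, 151 and 170. *Uhrf1*, *Suz12*, *Suv39h1* and *Hdac1* had means between 50.3 and 67.3. *Mbd3*, a subunit of the NuRD complex, was not a member, because its strong peak (279, 270 and 321) was centred 198 bp upstream of the TSS.

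In the list of cell cycle inhibitors and p53 pathway genes, 6 of 30 (20.0%) had a core promoter peak, with a median mean of 143. *Cdkn2d*, an inhibitor of the G1 cyclin-dependent kinases, held 283, 236 and 242 normalised reads, and *Ccng2*, an atypical cyclin of arrested cells, held 218, 235 and 231. Of the histone genes, 8 of 28 in the list (28.6%) had one, all 8 with a box at the TSS, and the median mean was 62.0. *Hist1h2bb* held 214, 263 and 239, and *Hist1h2ae* held 131, 133 and 146. Over all annotated replication-dependent histone genes named Hist1, Hist2 or Hist3, 21 of 66 were members, and 15 of these had at least 2 boxes. Histone copies are near-identical in their coding parts, multi-mapping reads had been removed, and the symbols in the peak table stand for several copies, so histone genes were told apart by gene identifier and their levels are less certain.

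In the list of NF-Y subunits and partner factors there were 6 of 31 (19.4%), with a median mean of 41.7. *Pbx3*, a homeodomain factor, held 78, 142 and 137 normalised reads. *Nfyb* was the only subunit gene with a core promoter peak, with 103, 71 and 99, and its 3 boxes lay outside the core window. Counted from the annotated gene start, the peak of *Nfya* was centred 129 bp downstream (187, 174 and 184) and that of *Nfyc* 6362 bp downstream (63, 64 and 96). In the mitochondrial list there were 6 of 30 (20.0%), with a median mean of 20.2, led by *Hspa14* with 114, 92 and 105, whose product is not mitochondrial, and by *Timm17a*, a subunit of the inner membrane import channel, with 70, 77 and 57. In the muscle stem cell and myogenic list there were 5 of 30 (16.7%), with a median mean of 23.7. *Id1*, an inhibitor of basic helix-loop-helix factors, held 38, 69 and 60, and *Myod1*, the myogenic determination factor, held 54, 44 and 58 with 1 box 94 bp upstream of the TSS. In the autophagy and lysosome list there were 4 of 30 (13.3%), among them *Atg2a*, a lipid transfer protein of the growing autophagosome, with 116, 77 and 108, and *Npc2*, a lysosomal cholesterol carrier, with 98, 71 and 94.

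The general transcription machinery, with 2 of 30 genes (6.67%), was the only list below the background of 7.96%. *Taf1*, which encodes the largest subunit of TFIID, held 123, 84 and 98 normalised reads, and *Taf8*, another TFIID subunit, held 23, 16 and 35. *Taf4* had no core promoter peak, and its nearest peak, 228 bp upstream, held 8, 4 and 22. These shares were not tested, since the lists were chosen with earlier results known.

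Divergent promoters, where a protein-coding gene on the opposite strand starts within 1000 bp upstream, made up 211 members (12.1%), compared with 6.79% of all annotated protein-coding genes. The divergent members had medians of 45, 47 and 42 normalised reads and the other members of 29, 28 and 30. The log2 ratio was 0.62 ± 0.13 (SD, n = 3), a 1.54-fold difference in the same direction in 3 of 3 libraries (exact sign-flip permutation test, two-sided, p = 0.25, the smallest possible). Divergent members had longer peaks, with a median of 278 bp compared with 244 bp, and among peaks of 200 to 300 bp the log2 ratio was 0.06. A box at the TSS was as frequent in divergent members, at 82.9% (77.3 to 87.4%), as in the others, at 81.3% (79.3 to 83.2%). In divergent members 42.6% (37.1 to 48.3%) of the boxes had CCAAT on the strand of the assigned gene, compared with 51.8% (49.6 to 54.0%) elsewhere. *Mvk*, whose start lies 209 bp from that of *Mmab*, and *Kctd9*, 96 bp from *Cdca2*, are examples. In 105 members (6.01%) the peak centre was also within 100 bp of the start of another protein-coding gene, so that the peak could be assigned to either gene.

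A minority of the genes with a core promoter peak had further NF-YA peaks. In 331 genes (18.9%) there were 418 further peaks, with a median distance of 1565 bp from the TSS. Their medians were 12, 15 and 14 normalised reads, compared with 37, 38 and 37 for the core promoter peaks of the same genes. The core promoter peak exceeded every further peak in all 3 libraries in 198 genes and was below a further peak in all 3 in 81. CCAAT within 50 bp of the centre was present in 40.9% (36.3 to 45.7%) of the further peaks. At *Kansl2*, for instance, the core promoter peak stood beside a weaker peak farther upstream.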

How the data were processed

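CUT&RUN with an NF-YA antibody was analysed in 3 libraries of cultured wild-type mouse MuSCs, and the 3 IgG libraries were not analysed here. Per their methods and the labels, the authors trimmed reads with Trimmomatic 0.39, aligned them with STAR 2.7.9a to mm10, removed duplicates with Picard 2.25.5 and multi-mapping reads, ran MACS2 on every NF-YA library with its IgG library as control, unified the peaks, counted reads with featureCounts and normalised with DESeq2 1.30.0. The deposited values are a score, namely size-factor-normalised reads per peak rounded to whole numbers, so no count model was used. Peaks were called on the libraries whose levels are reported. The authors annotated each peak to the nearest gene within 10000 bp of the TSS.

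The value of 1 read was estimated per library by maximum likelihood from the whole numbers that occur, giving about 477155, 226924 and 334651 reads in peaks for replicates 1, 2 and 3. Gene starts came from the peak table and, for all 21938 protein-coding promoters, from GENCODE M21, and 1737 of 1747 members had identical gene coordinates in both. The TSS of a gene was the 5′ end of the annotated gene, and distances to its other transcript starts are not given. Boxes were searched in GRCm38.p6. The replicates are described as biological in the study's methods. Comparisons of levels used the log2 ratio of medians per library and an exact sign-flip permutation test over 3 libraries, two-sided, which cannot go below p = 0.25. Shares carry 95% Wilson or Newcombe intervals, which cover counting error between peaks only. Peaks are not replicates of the condition. List symbols were matched to GENCODE names and unique RefSeq synonyms.

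The members and gene lists were chosen with earlier results of these data known. Named were the 10 members with the highest mean, the 2 highest of each list, the genes *Kansl2*, *Mbd3*, *Prmt1*, *Nfya*, *Nfyb*, *Nfyc* and *Taf4*, the 3 members nearest inside and the 3 peaks nearest outside 100 bp, the 3 members with the largest ratio between libraries among those with a mean of at least 30 (1 of them is not reported here), and the number of members at or below 3 reads in every library. Among peaks at equal distance from the TSS, those with the highest mean were taken. Other genes (*Traf2*, *Ncl*, *Kdm6a*, *Syvn1*, *Pdia6*, *Fzd5*, *Litaf* and further list members) were named after their values were seen. Alternatives changed the distance limit, the windows, the minimum mean, the comparison set, the summary and the treatment of peak length, and left out each replicate. Sequences shown overlap no annotated exon and exclude chromosome 18. All sample columns of the table were assigned (0 left over). Python 3.11.15 was used with numpy 2.4.6, pandas 2.3.3, scipy 1.17.1, statsmodels 0.14.6, pysam 0.24.0 and matplotlib 3.10.9, and the functions were tested on simulated data.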

Additional observations from a re-analysis of the deposited data

How the results depend on the processing

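The mean direction of the level comparisons and of the share difference held in the alternatives that were run, except that the level ratio vanished (0.00) against other peaks at 101 to 1000 bp. For divergent promoters with peaks of 200 to 300 bp the difference nearly vanished and was 0 in replicate 3. Other values moved. For the log2 level ratio to other peaks (0.77) they were 0.43 with mean log2(value + 1), 0.46 per kb, 0.28 with a mean of at least 10, 1.29 against all other peaks, 0.40 with a limit of 50 bp and 1.29 with a limit of 250 bp, and equal library totals cancel in a ratio within a library. For the CCAAT share difference (22.4 points) they were 18.8 within 100 bp of the centre, 18.5 over the whole peak, 18.4 with a mean of at least 10, 16.1 with a limit of 50 bp and 26.1 against all other peaks. The position share was 35.2% for promoters with 1 box. For level by CCAAT (1.44) they were 0.82 per kb, 1.03 with the window at the peak centre, 1.17 with mean log2(value + 1) and 0.54 for peaks of 200 to 300 bp. For level by CCAAT number (1.43) they were 0.85 per kb, 1.23 with mean log2(value + 1) and 0.29 for peaks of 200 to 300 bp. For divergent promoters (0.62) they were 0.38 per kb and 0.063 for peaks of 200 to 300 bp. The comparisons within 200 to 300 bp and with 101 to 1000 bp were added after seeing the data, and the cause of these shifts was not tested. Leaving out 1 replicate gave 0.72 to 0.83 for the level ratio, 1.41 to 1.49 for level by CCAAT, 1.39 to 1.49 for level by CCAAT number and 0.56 to 0.69 for divergent promoters, from the 2 remaining libraries. No paired analysis was possible because no IgG values were analysed, so NF-YA and IgG libraries of the same number could not be set against each other. The level comparisons were made within each library. The median member rests on about 20.3 reads in replicate 2, so differences between single weak members were not resolved.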
